A study of Mus musculus with 16 samples.

Results

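Pyruvate handling and the tricarboxylic acid cycle were followed through 34 genes, taken by symbol from the tables of both fat depots. They made up 34 of the 30325 genes in the gonadal table and 34 of the 30946 genes in the subcutaneous table, and 29084 genes were in both tables. By role, 16 genes belong to pyruvate entry, 12 to the cycle itself and 6 to the shuttles. Shuttle genes carry its intermediates across the inner mitochondrial membrane or convert them on either side of it. The mice were females null for the lipocalin-2 gene (Lcn2-null, B6.129P2-Lcn2tm1Aade/AkiJ, on a C57BL/6J background). They received AAV8, a viral vector, at 8 weeks of age, carrying either LCN2 or GFP under an adiponectin promoter, which is active in adipocytes. A microRNA122 target sequence in the construct leads to its breakdown in liver. All mice then ate a HF/HS diet until 16 weeks of age, so the GFP controls share the deletion, the virus and the diet with the LCN2 mice. RNA was sequenced from gonadal and subcutaneous fat with 4 samples for each vector and depot, 16 in all, and no group without virus or with an intact Lcn2 gene was analysed here.

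The mitochondrial pyruvate carrier brings pyruvate into the matrix, where the pyruvate dehydrogenase complex turns it into acetyl-CoA. Kinases switch the complex off by phosphorylation and phosphatases switch it on again. Pyruvate carboxylase makes oxaloacetate from the same pyruvate. In white fat, citrate made by the cycle leaves the mitochondrion and supplies carbon for fatty acid synthesis, and oxaloacetate feeds the synthesis of glycerol 3-phosphate through phosphoenolpyruvate carboxykinase.

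The sequences before the starts of 6 genes are shown because 4 of them, Pdhb, Cs, Pcx and Slc25a1, had LCN2 sample 3 highest among LCN2 samples and GFP sample 4 lowest among GFP samples in both depots, and the other 2, Pdk4 and Pck1, had neither in either depot. The choice was made after their values were seen. Each is 150 bases of the RefSeq promoter (GRCm38.p6), ending before the start annotated by RefSeq or, for Pdhb, Pdk4 and Pck1, before the GENCODE start a little upstream of it, read 5′ to 3′ on the gene's strand, with the letters CCAAT or their reverse complement ATTGG in capitals.
Pdhb (chr14:8173026-8173175, minus strand): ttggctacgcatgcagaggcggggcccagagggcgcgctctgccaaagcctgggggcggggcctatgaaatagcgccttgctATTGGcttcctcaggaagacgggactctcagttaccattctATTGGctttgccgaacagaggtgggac
Cs (chr10:128337577-128337726, plus strand): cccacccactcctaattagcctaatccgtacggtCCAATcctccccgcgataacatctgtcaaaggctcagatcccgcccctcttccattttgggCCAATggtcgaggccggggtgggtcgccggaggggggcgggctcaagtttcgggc
Pcx (chr19:4510322-4510471, plus strand): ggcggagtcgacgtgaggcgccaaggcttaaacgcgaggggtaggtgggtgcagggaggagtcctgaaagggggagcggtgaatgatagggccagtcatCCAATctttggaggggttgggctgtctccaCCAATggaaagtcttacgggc
Slc25a1 (chr16:17928220-17928369, minus strand): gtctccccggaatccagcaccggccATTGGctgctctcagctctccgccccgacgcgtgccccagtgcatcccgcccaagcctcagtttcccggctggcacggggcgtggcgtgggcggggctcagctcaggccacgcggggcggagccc
Pdk4 (chr6:5496310-5496459, minus strand): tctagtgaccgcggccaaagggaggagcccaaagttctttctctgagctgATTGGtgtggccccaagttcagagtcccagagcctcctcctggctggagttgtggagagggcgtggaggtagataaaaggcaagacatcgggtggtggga
Pck1 (chr2:173152898-173153047, plus strand): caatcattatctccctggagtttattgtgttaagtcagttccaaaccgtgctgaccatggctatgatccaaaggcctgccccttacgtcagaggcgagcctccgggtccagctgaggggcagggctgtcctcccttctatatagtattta
The windows of Pdhb, Cs and Pcx hold these letters at 2 places each, those of Slc25a1 and Pdk4 at 1 place, and that of Pck1 at 0 places.

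A promoter was matched for 32 of the 34 genes. Over the 250 bases before the start, and on either strand, CCAAT stood in 19 of the 32 (59.4%), against 34.5% of 27025 genes with a promoter in RefSeq. The GC box letters GGGCGG stood in 21 of the 32 (65.6%), against 32.9% of all genes, and TATAAA in 1 of the 32 (3.12%), against 13% of all genes. The E-box letters CACGTG stood in 5 of the 32 (15.6%), against 6.05% of all genes, and the 5 genes were Pdp2, Pdpr, Pdk2, Slc25a1 and Pcx. Each string was counted on its own, and ATTGG and GGGCGG can share G bases at their ends. A match of letters is a description of the window and does not show that a factor binds there.

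Gonadal values are normalized counts, each sample's reads divided by 1 factor for that sample, and rested on 35173260 to 42890102 reads per sample (median 37423116.5). Subcutaneous values are rlog values, a log2 scale on which low genes are drawn towards their mean, and their depth is unknown. The vector gene was checked first. Lcn2 had 186, 189, 522 and 481 normalized counts in gonadal LCN2 samples 1 to 4, against 103, 62.1, 70 and 89.5 in gonadal GFP samples. In subcutaneous fat Lcn2 had rlog values of 8.74, 8.49, 9.45 and 9.82 in LCN2 samples, against 7.76, 8.32, 8.23 and 8.37 in GFP samples. The groups did not overlap in either depot (two-sided exact permutation test, p = 0.0286 in each, the smallest that 4 against 4 allows), and limma's adjusted p was 0.108 in gonadal and 0.315 in subcutaneous fat. GFP samples also gave Lcn2 reads, and which part of the transcript the null allele leaves is not given in the sources used here. Adipocyte markers (Adipoq, Plin1, Fabp4, Lep, Cidec, Lipe and Pnpla2) were present in every library, with 7 of 7 above 0 and gonadal sums of 701226 to 842901 normalized counts in LCN2 samples, against 669437 to 971203 in GFP samples. Transcripts of other tissues stood out in some libraries. Skeletal muscle markers summed to 53669 normalized counts in gonadal LCN2 sample 4, against 1156 to 6921 in the other 7 gonadal samples, and lymph node markers summed on the linear rlog scale to 548 to 2983 in subcutaneous LCN2 samples, against 12568 and 6676 in GFP samples 1 and 2 and 709 and 885 in GFP samples 3 and 4. Of 7 hepatocyte genes, 6 had a higher mean with LCN2 in gonadal fat and 0 in subcutaneous fat. Among them Alb, which encodes albumin, had 11019, 28487, 3198 and 1271 normalized counts in gonadal LCN2 samples, against 9989, 1517, 1928 and 1773 in GFP samples, and LCN2 samples 1 and 2 and GFP sample 1 stood above the rest. In subcutaneous fat Alb had rlog values of 11.40, 11.16, 10.85 and 10.73 in LCN2 samples, against 11.41, 13.00, 10.75 and 10.84 in GFP samples, with GFP sample 2 the highest. Without the 3 gonadal libraries high in Alb, the median difference of the 34 genes in gonadal fat was 0.16, against -0.04 with all samples, and the part of hepatocyte transcripts in it was not tested.

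None of the 34 genes passed the threshold in either depot (limma across all genes, Benjamini-Hochberg adjusted p under 0.05). In gonadal fat the same test called 20 of 19536 genes (0.102%), 8 higher with LCN2 (0.041%) and 12 lower (0.0614%), and the smallest adjusted p among the 34 was 0.186. At an unadjusted p under 0.05, Pdk3 was higher and Pdp1 lower, which is 1 gene each way, against 7.44% of all genes higher and 7.38% lower. On the recovered reads, edgeR called 0 of the 34 and 7 of 19536 genes (0.0358%), and DESeq2 called 0 of the 34 and 818 of 19442 genes (4.21%). In subcutaneous fat limma called 0 of 20302 genes (0%), the smallest adjusted p among the 34 was 0.315, and at an unadjusted p under 0.05 Idh1 was higher while Pdk1, Pdk2 and Idh3b were lower. That is 1 gene higher and 3 lower, against 7.71% and 6.31% of all genes.

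The differences between vectors were read beside the spread within a vector. In gonadal fat 18 of the 34 genes had a lower mean of log2 values with LCN2 and 16 a higher one, with 48% of all genes lower, and the median difference (LCN2 minus GFP, on log2 of the normalized count plus 1) was -0.04, against 0.01 over all genes tested. In subcutaneous fat 29 of the 34 were lower and 5 higher, with 50.2% of all genes lower, and the median rlog difference was -0.11, against -0.00 over all genes. The 34 genes share samples and move together, so these counts do not stand for 34 separate observations. The difference was smaller than both the range among the 4 LCN2 samples and that among the 4 GFP samples for 33 of 34 genes in gonadal fat and for 29 of 34 in subcutaneous fat. A difference of group means is usually smaller than a range of single samples. The share over all genes was not counted, so these counts show no trait of the 34 genes. In gonadal fat the median range over the 34 genes, on the log2 scale, was 0.51 among LCN2 samples and 1.14 among GFP samples, against 0.41 and 0.55 over all genes. In subcutaneous fat it was 0.40 among LCN2 samples and 0.44 among GFP samples, against 0.23 and 0.28 over all genes. Because whole tissue was sequenced, fewer cells of a type and less RNA per cell cannot be told apart.

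**Figure D1:**
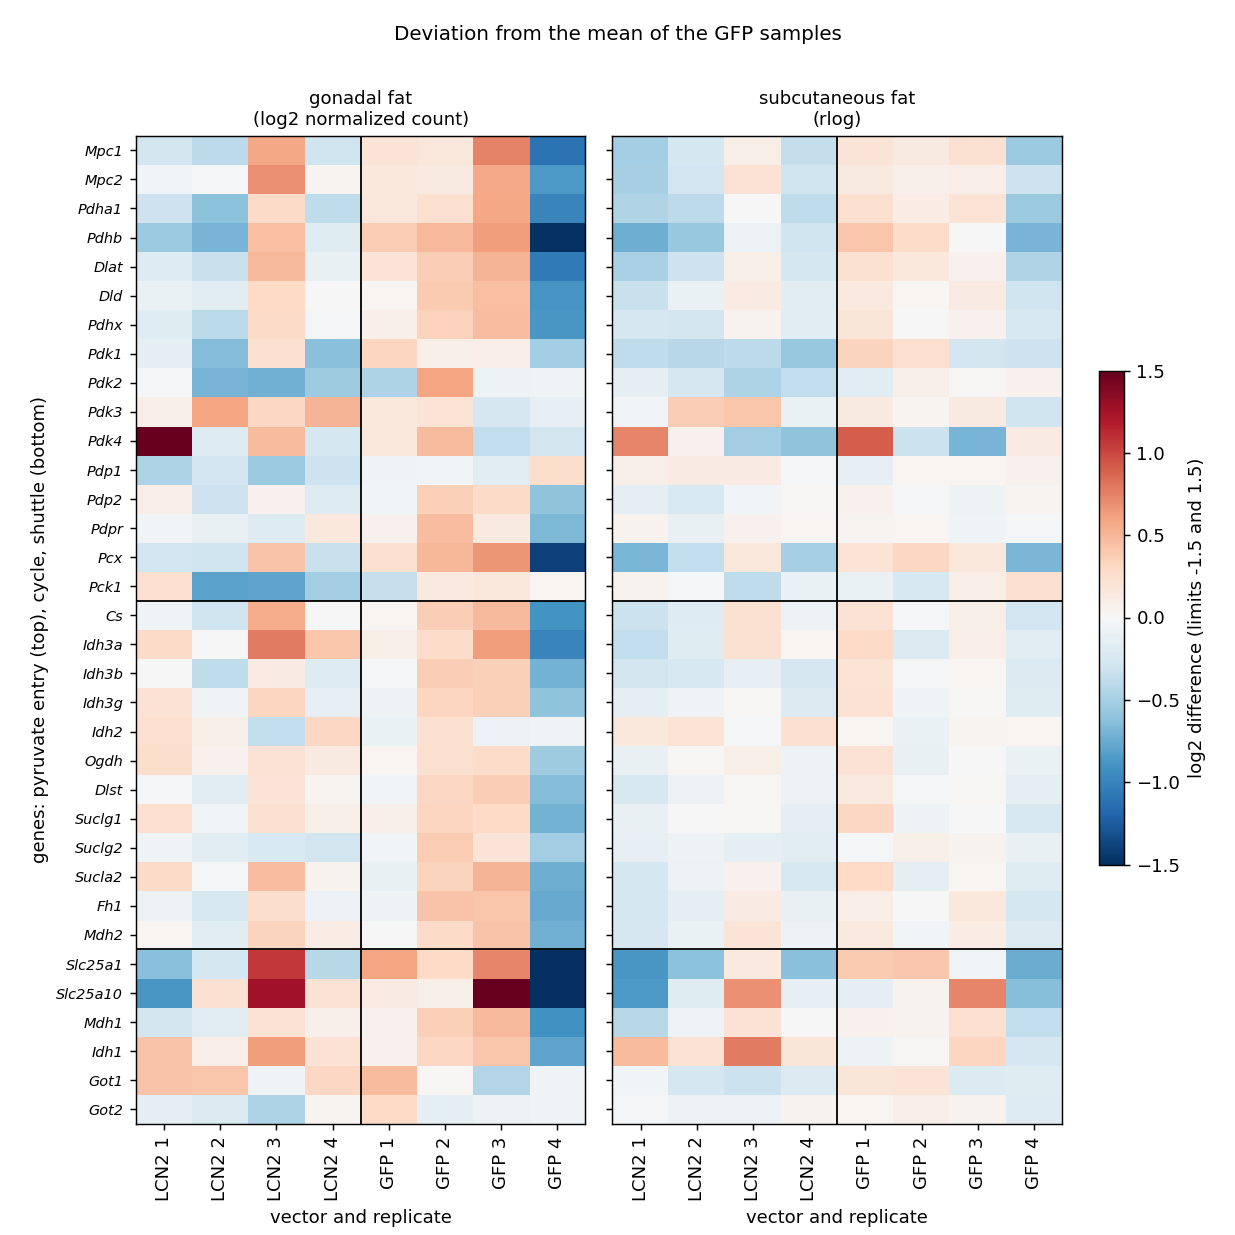
Each square is the deviation of 1 sample from the mean of the 4 GFP samples of its depot, on a log2 scale with colour limits of -1.5 and 1.5, for the 34 genes (rows, by role) in gonadal fat (left, normalized count) and subcutaneous fat (right, rlog). The column of GFP sample 4 is blue in most rows of both panels, and LCN2 sample 3 is the reddest LCN2 column in most rows; a few squares, such as Slc25a1 in gonadal GFP sample 4, lie beyond the colour limits.

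Among the genes of pyruvate entry, 12 of 16 had a lower mean with LCN2 in gonadal fat (median -0.09) and 13 of 16 in subcutaneous fat (median -0.19), and 0 of 16 passed the threshold in either. The 16 include the kinases that switch the complex off and Pck1, which draws on oxaloacetate. These counts therefore do not give a direction of pyruvate entry. Mpc1 (chr17:8282904-8297661), a subunit of the pyruvate carrier, had 3169, 2908, 5721 and 3114 normalized counts in gonadal fat with LCN2, against 4375, 4295, 6391 and 1781 with GFP. LCN2 sample 3 and GFP sample 3 were high, GFP sample 4 was the lowest of the 8, and the difference was -0.10 ± 0.38 (limma, adjusted p = 0.94). In subcutaneous fat Mpc1 had rlog values of 11.22, 11.47, 11.82 and 11.38 with LCN2, against 11.93, 11.87, 11.96 and 11.17 with GFP. GFP sample 4 was again the lowest of the 8, with a difference of -0.26 ± 0.20 (limma, adjusted p = 0.545). Mpc2, the partner subunit, had differences of 0.17 ± 0.29 in gonadal and -0.22 ± 0.16 in subcutaneous fat. Reads of Mpc1 are less certain, since 23.1% of its exonic bases lie opposite a gene on the other strand, the strand setting of the counting is not given in the sources used here, and 1 pseudogene of it is annotated.

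For each of the 5 subunits of the pyruvate dehydrogenase complex, LCN2 sample 3 was the highest LCN2 sample and GFP sample 4 the lowest GFP sample, in both depots. Pdhb (chr14:8165996-8173025), the beta subunit of the decarboxylase, showed the widest spread of the 5 and is given in full after its values were seen. It had 3931, 3571, 7902 and 5103 normalized counts in gonadal fat with LCN2, against 7529.9, 8067, 8884 and 2059 with GFP. GFP samples 1 to 3 lay close together and above 3 of the 4 LCN2 samples, while GFP sample 4 lay below all LCN2 samples, and the difference was -0.24 ± 0.46 (limma, adjusted p = 0.864). In subcutaneous fat Pdhb had rlog values of 11.64, 11.81, 12.29 and 12.07 with LCN2, against 12.79, 12.64, 12.38 and 11.68 with GFP, a difference of -0.42 ± 0.25 (limma, adjusted p = 0.459). There GFP sample 4 lay below 3 of the 4 LCN2 samples. The alpha subunit Pdha1, the acetyltransferase Dlat, the lipoamide dehydrogenase Dld and the binding protein Pdhx had gonadal differences of -0.25 ± 0.33, -0.04 ± 0.34, 0.01 ± 0.27 and -0.08 ± 0.28. In subcutaneous fat their differences were -0.31 ± 0.19, -0.24 ± 0.17, -0.12 ± 0.12 and -0.16 ± 0.11. For Pdha1, 16.1% of exonic bases lie opposite a gene on the other strand.

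None of the 4 kinases and 3 phosphatase genes of the complex had LCN2 sample 3 highest and GFP sample 4 lowest in both depots. Pdk2 (chr11:95026258-95041354), a broadly expressed kinase, had 4341, 2716, 2668 and 3022 normalized counts in gonadal fat with LCN2, against 3190.5, 6641, 4161 and 4214 with GFP, a difference of -0.49 ± 0.23 (limma, adjusted p = 0.368). In subcutaneous fat it had rlog values of 11.49, 11.36, 11.15 and 11.24 with LCN2, against 11.45, 11.71, 11.64 and 11.68 with GFP. LCN2 samples 2 to 4 lay below all GFP samples there and LCN2 sample 1 lay just above GFP sample 1, and the difference was -0.31 ± 0.09 (limma, unadjusted p = 0.00822, adjusted p = 0.315). Pdk1 (chr2:71873224-71903858), a kinase known as a target of hypoxia-inducible factor, had subcutaneous rlog values of 10.77, 10.74, 10.76 and 10.58 with LCN2, against 11.49, 11.40, 10.87 and 10.84 with GFP. All LCN2 values lay below all GFP values, and GFP samples 1 and 2 were far above GFP samples 3 and 4. The difference was -0.44 ± 0.16 (limma, adjusted p = 0.32), and Pdk1 was the only one of the 34 genes whose subcutaneous groups did not overlap, against 3.27% of all genes lower without overlap and 3.81% higher. The 2 high GFP samples are those with the highest sums of lymph node markers, and the part of those transcripts in the difference was not tested. Without these 2 samples the difference of Pdk1 was -0.14. In gonadal fat Pdk1 had 2019, 1409.9, 2604 and 1429 normalized counts with LCN2, against 2774, 2342, 2363 and 1557 with GFP, and the groups overlapped, with a difference of -0.29 ± 0.24.

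Pdk3 (chrX:93764607-93832201), the least abundant of the 4 kinases here, had 273, 387, 317 and 364 normalized counts in gonadal fat with LCN2, against 286, 295, 215 and 235 with GFP. LCN2 samples 2 to 4 lay above all GFP samples and LCN2 sample 1 among them, and the difference was 0.38 ± 0.15 (limma, unadjusted p = 0.033, adjusted p = 0.289). In subcutaneous fat Pdk3 had rlog values of 7.98, 8.39, 8.44 and 7.93 with LCN2, against 8.15, 8.06, 8.15 and 7.72 with GFP, and the groups overlapped, with a difference of 0.16 ± 0.15. Pdk4 (chr6:5483351-5496309), the kinase induced by fasting and fatty acids, had 11147, 2537, 4023 and 2423 normalized counts in gonadal fat with LCN2, against 3255, 4039, 2251 and 2387 with GFP, and LCN2 sample 1 stood far above the other 7. The difference was 0.49 ± 0.45 (limma, adjusted p = 0.672). That sample also had the highest sum of brown and beige fat markers (Ucp1, Cidea and 5 others, 7 of 7 present), 11638 normalized counts, against 907 to 5726 in the other LCN2 samples and 471 to 2644 in GFP samples. In subcutaneous fat Pdk4 had rlog values of 12.46, 11.79, 11.20 and 11.13 with LCN2, against 12.63, 11.40, 11.03 and 11.85 with GFP, with sample 1 the highest in both groups. The brown and beige sum, on the linear rlog scale, was 1836 to 2384 in subcutaneous LCN2 samples, against 8623 in GFP sample 1 and 1961 to 4834 in the other GFP samples. The part of such cells in the Pdk4 values was not tested.

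Pdp1 (chr4:11958184-11966452), the calcium-stimulated phosphatase that reactivates the complex, had 398, 449, 372 and 441 normalized counts in gonadal fat with LCN2, against 529, 531, 488 and 660.5 with GFP. All 4 LCN2 values lay below all 4 GFP values, and the group means were 415 ± 36.4 with LCN2 and 552 ± 75 with GFP (SD, n = 4 each). The difference was -0.41 ± 0.12 (limma, unadjusted p = 0.00671, adjusted p = 0.186). It was the only one of the 34 genes whose gonadal groups did not overlap, against 4.71% of all genes lower without overlap and 4.4% higher. In subcutaneous fat Pdp1 had rlog values of 8.71, 8.75, 8.75 and 8.61 with LCN2, against 8.51, 8.66, 8.66 and 8.69 with GFP, which overlapped, with a difference of 0.08 ± 0.06. Whether the depots differ was not tested, because their tables were normalized separately. The second phosphatase Pdp2 had a gonadal difference of -0.09 ± 0.21 and a subcutaneous one of -0.10 ± 0.07, and the regulatory subunit Pdpr had -0.05 ± 0.22 and 0.01 ± 0.06.

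Pcx (chr19:4510472-4621752), pyruvate carboxylase, had 41017, 40818, 67098 and 39578 normalized counts in gonadal fat with LCN2, against 59181, 70818, 78908 and 18941 with GFP. LCN2 sample 3 stood apart from 3 LCN2 samples that lay within a narrow band, and GFP sample 4 lay below every other sample. The difference was -0.12 ± 0.43 (limma, adjusted p = 0.932). In subcutaneous fat Pcx had rlog values of 14.37, 14.69, 15.22 and 14.55 with LCN2, against 15.26, 15.36, 15.22 and 14.37 with GFP, and GFP sample 4 fell among the low LCN2 samples while LCN2 sample 3 fell among the high GFP samples. The difference there was -0.35 ± 0.25 (limma, adjusted p = 0.536). Pck1 (chr2:173153048-173159273), the cytosolic phosphoenolpyruvate carboxykinase of glyceroneogenesis, ordered the samples in another way. It had 145151, 69906, 70494 and 85145 normalized counts in gonadal fat with LCN2, against 95914, 135331, 137260.0 and 124927 with GFP. LCN2 samples 2 to 4 lay below all GFP samples and LCN2 sample 1 was the highest of the 8, with a difference of -0.47 ± 0.27 (limma, adjusted p = 0.476). In subcutaneous fat Pck1 had rlog values of 16.38, 16.30, 15.96 and 16.23 with LCN2, against 16.23, 16.10, 16.43 and 16.57 with GFP, where GFP sample 4 was the highest of the 8 and LCN2 sample 3 the lowest, with a difference of -0.12 ± 0.13.

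**Figure D2:**
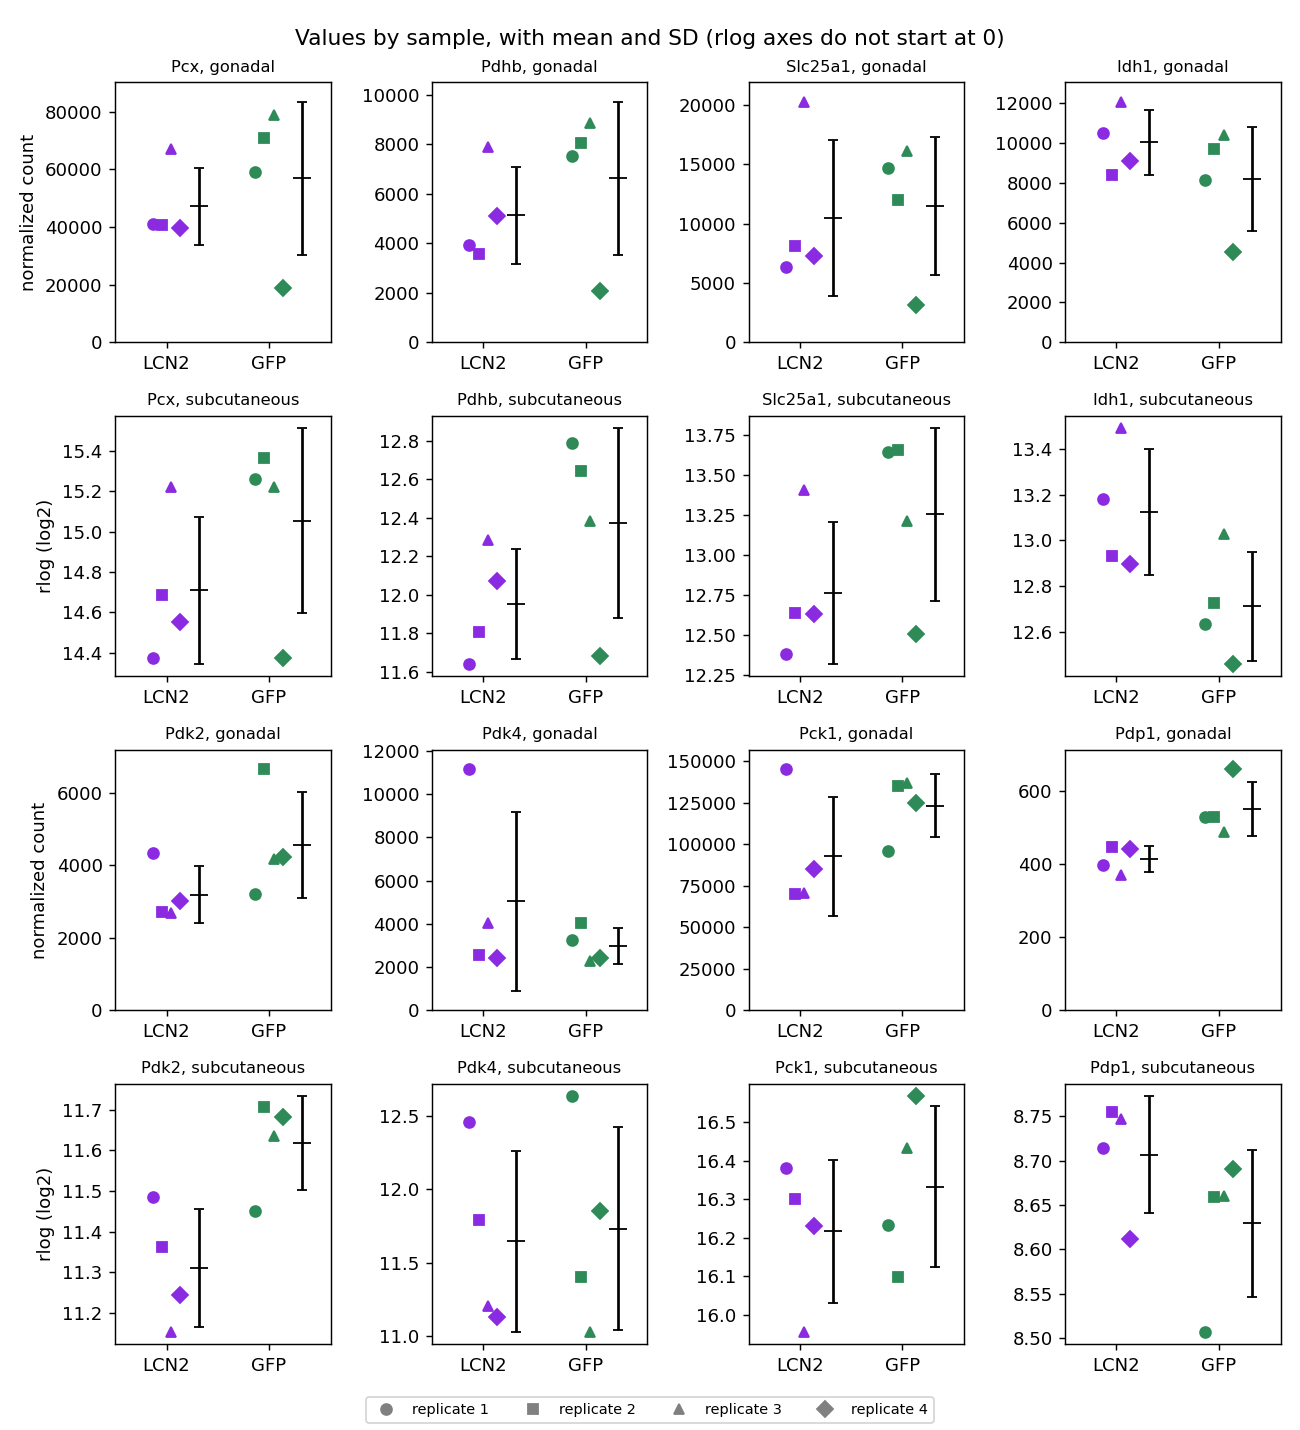
Each point is 1 sample, LCN2 left and GFP right, with the group mean and SD (n = 4) beside it, for 8 genes in gonadal fat (normalized count, axes from 0) and in subcutaneous fat (rlog, axes not from 0). GFP sample 4 (diamond) is the lowest GFP point for Pcx, Pdhb, Slc25a1 and Idh1 in both depots, whereas for Pdp1 it is the highest; Pdp1 in gonadal fat is the panel in which the groups do not overlap.

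Within the cycle, 3 of 12 genes had a lower mean with LCN2 in gonadal fat (median 0.07) and 11 of 12 in subcutaneous fat (median -0.10), and 0 of 12 passed the threshold in either. Cs (chr10:128337734-128362479), citrate synthase, had 13924, 11782, 21262 and 14358 normalized counts in gonadal fat with LCN2, against 14802, 18703, 20249 and 7775 with GFP. The 2 groups had nearly the same mean, 15332 ± 4111 with LCN2 and 15383 ± 5565 with GFP (SD, n = 4 each), and the difference of log2 values was 0.05 ± 0.31 (limma, adjusted p = 0.963). In subcutaneous fat its rlog values were 13.40, 13.52, 13.95 and 13.63 with LCN2, against 13.94, 13.70, 13.81 and 13.43 with GFP, a difference of -0.09 ± 0.14. The 3 subunits of NAD-dependent isocitrate dehydrogenase did not lie on the same side of 0 in gonadal fat. The catalytic subunit Idh3a had 8133, 6691, 11440.2 and 8921 normalized counts with LCN2, against 7103, 8089, 10286 and 3344 with GFP, a difference of 0.37 ± 0.32 (limma, adjusted p = 0.65). The subunits Idh3b and Idh3g had gonadal differences of -0.12 ± 0.23 and 0.09 ± 0.21. Subcutaneous Idh3b had rlog values of 12.00, 12.03, 12.16 and 12.02 with LCN2, against 12.48, 12.26, 12.30 and 12.06 with GFP. The LCN2 values lay within a narrow band at the low end of the GFP values, and the difference was -0.22 ± 0.09 (limma, unadjusted p = 0.036, adjusted p = 0.335).

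Succinyl-CoA ligase joins a shared alpha subunit, Suclg1, to a GTP-forming (Suclg2) or an ATP-forming (Sucla2) beta subunit. Suclg2 (chr6:95473009-95718800) had 1982, 1858, 1772 and 1713 normalized counts in gonadal fat with LCN2, against 2023, 2696, 2371 and 1443 with GFP, a difference of -0.18 ± 0.17 (limma, adjusted p = 0.681). GFP samples 1 to 3 lay above all LCN2 samples and GFP sample 4 below them. In subcutaneous fat its rlog values were 10.80, 10.85, 10.77 and 10.75 with LCN2, against 10.89, 11.01, 10.98 and 10.81 with GFP, a difference of -0.13 ± 0.06 (limma, adjusted p = 0.377). The gonadal and subcutaneous differences of Sucla2 were 0.20 ± 0.25 and -0.13 ± 0.12, and those of Suclg1 were 0.13 ± 0.21 and -0.06 ± 0.11. Idh2, the NADP-dependent mitochondrial isocitrate dehydrogenase, was the gene of the cycle with a positive difference in both depots, 0.07 ± 0.15 in gonadal and 0.15 ± 0.07 in subcutaneous fat. The oxoglutarate dehydrogenase subunits Ogdh and Dlst had gonadal differences of 0.17 ± 0.18 and 0.01 ± 0.21, fumarase (Fh1) of -0.04 ± 0.25 and mitochondrial malate dehydrogenase (Mdh2) of 0.08 ± 0.24. Their subcutaneous differences were -0.02 ± 0.09, -0.10 ± 0.08, -0.10 ± 0.11 and -0.06 ± 0.11.

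Of the 6 shuttle genes, 3 had a lower mean with LCN2 in gonadal fat (median 0.09) and 5 in subcutaneous fat (median -0.09), and 0 of 6 passed the threshold. Idh1 (chr1:65158616-65186500), the cytosolic isocitrate dehydrogenase that yields NADPH, had 10518, 8414, 12088 and 9109 normalized counts in gonadal fat with LCN2, against 8167, 9707, 10419 and 4529.8 with GFP, a difference of 0.35 ± 0.25 (limma, adjusted p = 0.579). In subcutaneous fat its rlog values were 13.18, 12.93, 13.49 and 12.90 with LCN2, against 12.63, 12.72, 13.03 and 12.46 with GFP. GFP sample 3 lay among the LCN2 samples and the other GFP samples below them all, and the difference was 0.41 ± 0.16 (limma, unadjusted p = 0.0326, adjusted p = 0.333). Got1 (chr19:43499752-43524605), the cytosolic aspartate aminotransferase, had 267, 263, 189 and 246 normalized counts in gonadal fat with LCN2, against 275, 200.4, 145 and 191 with GFP, a difference of 0.27 ± 0.20 (limma, adjusted p = 0.579). Its subcutaneous rlog values were 8.16, 7.93, 7.88 and 7.99 with LCN2, against 8.39, 8.39, 8.00 and 8.02 with GFP, a difference of -0.21 ± 0.12 (limma, adjusted p = 0.442). The mitochondrial counterpart Got2, for which 9% of exonic bases lie opposite another gene and 1 pseudogene is annotated, had 1504, 1416, 1201 and 1694 normalized counts in gonadal fat with LCN2, against 2036, 1488, 1552 and 1576 with GFP. Its differences were -0.19 ± 0.13 in gonadal and -0.04 ± 0.07 in subcutaneous fat.

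By their range among GFP samples, the 2 carriers were the most variable of the 6 shuttle genes in both depots. Slc25a1 (chr16:17925223-17928219), which exports citrate, is given in full after its values were seen. It had 6319, 8083, 20282 and 7284 normalized counts in gonadal fat with LCN2, against 14688, 11996, 16153 and 3151 with GFP. LCN2 sample 3 was the highest of the 8 and GFP sample 4 the lowest, and the difference of -0.06 ± 0.55 had an error larger than itself (limma, adjusted p = 0.975). In subcutaneous fat its rlog values were 12.38, 12.64, 13.40 and 12.63 with LCN2, against 13.64, 13.65, 13.21 and 12.51 with GFP, a difference of -0.49 ± 0.30 (limma, adjusted p = 0.475). The dicarboxylate carrier Slc25a10 had gonadal values of 3633, 7814, 16021 and 7767 normalized counts with LCN2, against 7242, 7069, 19828 and 1949 with GFP, and differences of 0.21 ± 0.67 in gonadal and -0.12 ± 0.37 in subcutaneous fat. Cytosolic malate dehydrogenase, Mdh1, had differences of -0.04 ± 0.28 and -0.06 ± 0.16.

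**Figure D3:**
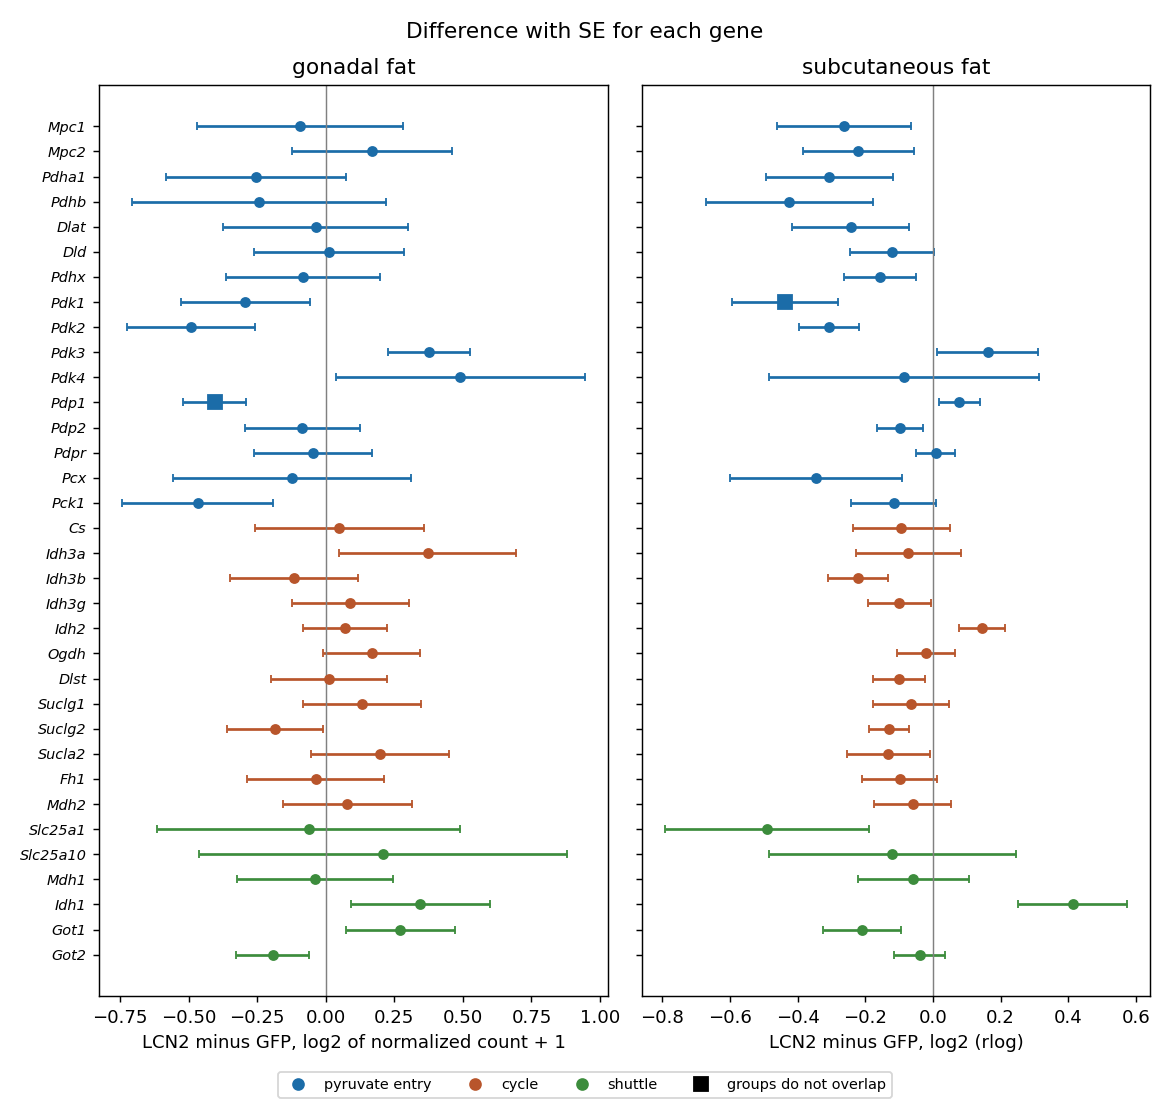
Points are differences, LCN2 minus GFP, with bars of 1 SE from limma, for the 34 genes in gonadal fat (left, log2 of normalized count plus 1) and subcutaneous fat (right, rlog), coloured by role, with squares where the 4 LCN2 and 4 GFP samples do not overlap. The squares are Pdp1 in gonadal fat and Pdk1 in subcutaneous fat, and most subcutaneous points lie left of 0.

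Many of these genes shared the order of the samples within a vector, which was noticed in the data and then counted. GFP sample 4 was the lowest of the 4 GFP samples for 26 of the 34 genes in gonadal fat, against 34.4% of all genes, and for 24 of 34 in subcutaneous fat, against 27.5%. LCN2 sample 3 was the highest of the 4 LCN2 samples for 21 of 34 genes in gonadal fat, against 28.1% of all genes, and for 24 of 34 in subcutaneous fat, against 32%. All 4 of these held for 19 of the 34 genes, against 7.93% of the 19109 genes tested in both depots. The 19 were Mpc1, Mpc2, Pdha1, Pdhb, Dlat, Dld, Pdhx, Pcx, Cs, Idh3b, Idh3g, Dlst, Sucla2, Fh1, Mdh2, Slc25a1, Slc25a10, Mdh1 and Idh1, which include both carrier subunits and all 5 subunits of the dehydrogenase complex. The other 15 included the 4 kinases, Pdp1, Pdp2, Pdpr and Pck1. CCAAT stood in the promoters of 11 of the 19 and of 8 of the 13 others with a promoter. The genes share libraries, so the counts describe these samples and are not a test.

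For each gene, the deviation of a sample from the mean of the 4 GFP samples of its depot was taken on the log2 scale. The median of this deviation over the 34 genes was -0.04, -0.18, 0.28 and -0.02 in gonadal LCN2 samples 1 to 4, against 0.07, 0.32, 0.39 and -0.71 in GFP samples 1 to 4. In subcutaneous fat it was -0.25, -0.13, 0.07 and -0.15 in LCN2 samples, against 0.16, 0.03, 0.06 and -0.23 in GFP samples. Whether equal sample numbers in the 2 depots stand for 1 mouse is not stated in the labels. Across 19109 genes, a sample's deviation from its group mean in gonadal fat correlated best with the sample of the same number in subcutaneous fat for 6 of the 8 samples, GFP sample 4 and LCN2 sample 3 among them, with r for equal numbers between -0.08 and 0.45. Genes are not independent replicates, and this is a description.

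Markers of other cells moved with these samples in part. The mesothelial markers (6 of 6 present) summed to 2554 to 6008 normalized counts in gonadal LCN2 samples, against 5798 to 7456 in GFP samples 1 to 3 and 12131 in GFP sample 4. The lymph node markers (9 of 9 present) summed to 535 to 766 in gonadal LCN2 samples, against 302 to 1362 in GFP samples 1 to 3 and 2588 in GFP sample 4. The endothelial markers (Pecam1, Cdh5 and Tie1, 3 of 3 present) had a higher mean with LCN2 for 3 of 3 in both depots. They summed to 22661 to 27145 in gonadal LCN2 samples, against 10783 to 20889 in GFP samples 1 to 3 and 22657 in GFP sample 4. On the linear rlog scale they summed to 15442 to 18805 in subcutaneous LCN2 samples, against 9897 to 12833 in GFP samples 1 to 3 and 17169.7 in GFP sample 4, so GFP sample 4 was the highest GFP sample in both depots. The macrophage markers (4 of 4 present) summed to 12373 to 20805 in gonadal LCN2 samples, against 13782 to 17004 in GFP samples 1 to 3 and 21774 in GFP sample 4. In subcutaneous fat GFP sample 4 had the lowest macrophage sum of the 8, 10946, against 11319 to 15036 in LCN2 samples. The adipocyte sum was lowest among LCN2 samples in gonadal LCN2 sample 3, 701226, and lowest among GFP samples in gonadal GFP sample 4, 669437. In subcutaneous fat neither was at an end of its group, with 607440 in LCN2 sample 3 (LCN2 range 525389 to 666590) and 540724 in GFP sample 4 (GFP range 460686 to 620127). For the brown and beige fat markers the median log2 level, rather than the sum, in gonadal LCN2 sample 3 was 9.28, against 5.10 to 8.68 in the other LCN2 samples. By sum, gonadal LCN2 sample 1 was the highest instead, with 11638 normalized counts, against 5726 in LCN2 sample 3. In gonadal GFP sample 4 the median level was 3.83, against 5.36 to 8.41 in the other GFP samples. In subcutaneous fat it was 7.75 in LCN2 sample 3, within the LCN2 range of 7.57 to 8.61. Subcutaneous GFP sample 4 had a median level of 9.43, the highest GFP sample, against 7.97 to 8.91. By sum on the linear rlog scale, GFP sample 1 was the highest instead, with 8623, against 4834 in GFP sample 4. The part of these cells in the order of the samples was not tested.

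Of 17 further genes of the pathway, 0 passed the threshold in either depot, 11 were lower with LCN2 in gonadal fat (median -0.02) and 13 in subcutaneous fat (median -0.06). The smallest p-values in gonadal fat belonged to Nnt, the nicotinamide nucleotide transhydrogenase, with -0.25 ± 0.15 (limma, adjusted p = 0.474), and Slc25a13, an aspartate-glutamate carrier, with 0.56 ± 0.50. In subcutaneous fat Slc25a12, another aspartate-glutamate carrier, had a difference of -0.20 ± 0.10 (limma, adjusted p = 0.413). GFP sample 4 was the lowest GFP sample for 13 of the 17 in gonadal fat and 12 in subcutaneous fat. Acly, which splits exported citrate into acetyl-CoA, was picked after its values were seen, with 6352, 8113, 80679 and 13776 normalized counts in gonadal fat with LCN2, against 80199, 48819, 61120.1 and 4468 with GFP. LCN2 sample 3 and GFP samples 1 to 3 were high, LCN2 samples 1, 2 and 4 and GFP sample 4 were low, and the difference was -1.06 ± 1.04 (limma, adjusted p = 0.698). In subcutaneous fat Acly had rlog values of 12.85, 13.06, 14.94 and 13.69 with LCN2, against 15.58, 15.25, 14.72 and 12.66 with GFP, the same split of the samples.

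Ratios between paired genes do not depend on how a sample was scaled, and 9 were compared in each depot, 18 in all. For Got1 over Got2, the cytosolic over the mitochondrial aminotransferase, the gonadal log2 ratio was -2.49, -2.42, -2.66 and -2.78 in LCN2 samples, against -2.88, -2.89, -3.41 and -3.04 in GFP samples. The groups did not overlap, the difference was 0.47 ± 0.15 (SE), and the two-sided exact permutation p was 0.0286, with a Benjamini-Hochberg value of 0.386 over the 18. In subcutaneous fat the same ratio overlapped, with a difference of -0.17 ± 0.11. Suclg2 over Sucla2 had a gonadal log2 ratio of -1.23, -1.02, -1.57 and -1.20 in LCN2 samples, against -0.80, -0.83, -1.19 and -0.67 in GFP samples, a difference of -0.38 ± 0.16 (exact permutation p = 0.0571, adjusted 0.386). Its subcutaneous difference was 0.00 ± 0.14. The other 14 overlapped, and 0 of the 18 passed after adjustment.

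Of the 8 gonadal samples, GFP sample 4 moved the median difference most when left out. Without GFP sample 4, 28 of the 34 genes were lower with LCN2 in gonadal fat, against 50.8% of all genes, and the median was -0.28. Without LCN2 sample 3, 23 of 34 were lower, against 48.3% of all genes, and the median was -0.12. Leaving out GFP sample 3 gave a median of 0.13, with 8 of 34 genes lower, and leaving out GFP sample 2 gave 0.11. Without both LCN2 sample 3 and GFP sample 4, 30 of 34 genes were lower, against 50.9% of all genes, a direction that follows from taking away the highest LCN2 and the lowest GFP sample of most of these genes. In subcutaneous fat the median stayed below 0 whichever sample was left out, between -0.18 (without GFP sample 4) and -0.07 (without GFP sample 1), and 29 of 34 genes were lower without GFP sample 4, against 49.4% of all genes, and 29 without LCN2 sample 3, against 50.6%. Without GFP samples 1 and 2, which have the highest sums of lymph node markers, the subcutaneous median was -0.04 with 24 of 34 genes lower. That fit kept LCN2 sample 4, which had the next highest sum, 2983 on the linear rlog scale. In each of these fits 0 of the 34 genes passed the threshold.

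**Figure D4:**
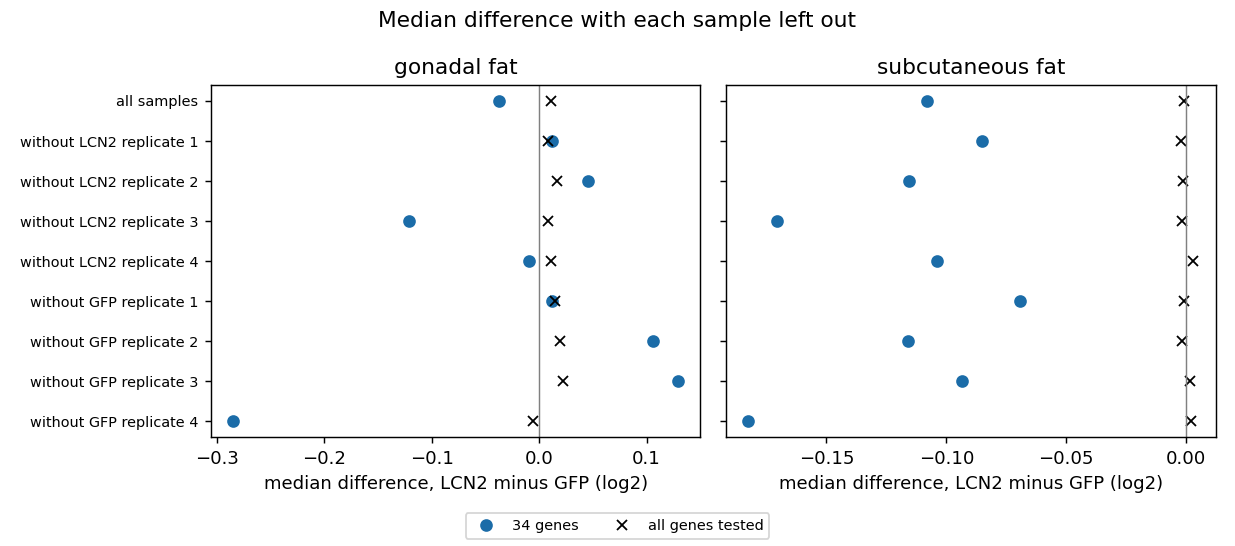
Median difference, LCN2 minus GFP (log2), over the 34 genes (circles) and over all genes tested (crosses), with all samples and with each sample left out in turn, in gonadal fat (left) and subcutaneous fat (right). In gonadal fat the circles run from -0.28 without GFP sample 4 to 0.13 without GFP sample 3, on both sides of 0, and in subcutaneous fat from -0.18 to -0.07.

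Levels can be compared between genes in gonadal fat after division by exonic length, on the scale of normalized counts per kilobase. Pck1 had the highest mean level of the 34, 27027 with LCN2 and 35975 with GFP, followed by Pcx with 9915 and 11984. Slc25a1 (4848 with LCN2 and 5313 with GFP) and Mdh1 (4494 and 4871) came next and did not differ beyond their spread. Pdp1 had 92.1 with LCN2 and 122 with GFP, and Got1 95 and 79.9, and these were the lowest of the 34 with LCN2. Among the kinases the order by level was Pdk4, Pdk2, Pdk1 and Pdk3 with LCN2 (1433, 1007, 239.8 and 131) and Pdk2, Pdk4, Pdk1 and Pdk3 with GFP (1439, 849.5, 290.4 and 101). The high LCN2 level of Pdk4 rests on LCN2 sample 1. Together the 34 genes took 0.918%, 0.686%, 0.893% and 0.776% of the recovered reads in LCN2 samples, against 0.855%, 1.03%, 1.10% and 0.728% in GFP samples. Of these reads, Pck1 alone took 0.381%, 0.189%, 0.177% and 0.233% in LCN2 samples, against 0.250%, 0.343%, 0.339% and 0.385% in GFP samples. The cycle genes took 0.211%, 0.187%, 0.237% and 0.214% in LCN2 samples, against 0.194%, 0.235%, 0.241% and 0.143% in GFP samples.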

How the data were processed

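RNA had been extracted from frozen fat with an integrity number above 8.2 and made into stranded mRNA libraries, per the labels' protocols. The submitters' processing notes name HISAT2 and DESeq2, and the builds GRCm38 and mm10; tool versions, the read counter and its annotation were not given in the sources used here. The authors deposited gonadal values as a signal per gene, the count divided by 1 size factor per sample, and 100% of these came out as whole reads within a tolerance of 1e-06. Subcutaneous values were deposited as rlog, on a log2 scale. Samples were grouped by the vector and depot in the labels.

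Gonadal log2 of the normalized count plus 1 (19536 genes with a mean of at least 10) was tested with an intensity trend in limma 3.58.1 (R 4.3.3), and subcutaneous rlog values (20302 genes with a mean of at least 3) with limma as deposited, both Benjamini-Hochberg adjusted over all genes. The log2 fold changes understate the change of low genes. Errors are SE unless given as SD. The tests were checked on simulated data. edgeR 4.0.16 and DESeq2 1.42.0 were run on recovered reads. The genes given in full were all 4 kinases, Pck1, Pcx, Cs, Mpc1 and, per depot and role, the 2 smallest p-values. A gene that this rule names among the further genes of the pathway is not reported here by name, though it is counted among them. Members and lists were chosen with earlier results of these data known. The labels state no more than the group size about the source of the samples, so the p-values reflect only the spread between these samples, which may be technical. Gonadal libraries of a group differed by more than sampling noise (chi-square per gene at least 45.8). Gene positions come from a GENCODE annotation of GRCm38 and promoters from RefSeq GRCm38.p6, both matched by symbol.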

Additional observations from a re-analysis of the deposited data

Results flagged for a closer look

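In 15 of 176 groups of 4 samples (8.52%), the gap between 1 end sample and its nearest neighbour was a larger share of the group's whole range than Dixon's critical value at 95%. Gonadal genes were examined on normalized counts, subcutaneous genes on rlog values and ratios on log2 values. On normalized counts a low end sample is flagged less readily than on a log2 scale, so flags cannot be compared between the depots. Chance gives such a gap in about 1 of 20 groups, and the groups share libraries, so the 15 are not separate events.

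LCN2 sample 3 was far above the other LCN2 samples in gonadal fat for Mpc1 (5721 normalized counts), Mpc2 (6282), Pcx (67098) and Slc25a1 (20282), and in subcutaneous fat for Pdha1 (rlog 13.27). GFP sample 4 was far below the other GFP samples in subcutaneous fat for Mpc1 (rlog 11.17), Mpc2 (11.62), Pdha1 (12.72) and Pcx (14.37). In gonadal fat it was low for the log2 ratio of Mdh1 over Mdh2 (0.38) and high for that of Pck1 over Pcx (2.72).

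The remaining 4 fell outside these samples. In gonadal fat GFP sample 2 was high for Idh2 (3857 normalized counts) and GFP sample 1 for Got2 (2036). In subcutaneous fat GFP sample 1 was low for Pdp1 (rlog 8.51) and GFP sample 2 for Idh2 (11.50).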

How the results depend on the processing

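Under the alternatives run, 0 of the 34 genes passed the threshold in either depot; the smallest adjusted p was 0.0555 (Pdp1 in gonadal fat, DESeq2) and 0.120 (Pdha1 in subcutaneous fat, without GFP replicate 4). Whether the replicate numbers pair LCN2 with GFP samples is not stated in the labels. Deviations of equal numbers correlated between -0.36 and 0.42 in gonadal and between -0.36 and 0.34 in subcutaneous fat. With the replicate number as a block 0 genes were called in gonadal fat and 0 in subcutaneous fat, where 0 were called without it too. The share of all genes at an unadjusted limma p under 0.05 was 13.5% with the block in gonadal fat, against 14.8% without it. In subcutaneous fat it was 15.6% with the block, against 14.0% without it, so these fits do not settle the pairing. Gonadal calls over all genes, 20 with all samples, were 6 with scaling by library totals, 11 at a mean of at least 50, 7 with edgeR, 818 with DESeq2, and 0 without the libraries highest in muscle markers or without those highest in hepatocyte genes. They ran from 1 (reached when GFP replicate 2 or 3, or LCN2 replicate 3, was left out) to 66 (without GFP replicate 4). Lcn2 kept its direction, between 1.68 and 2.17 in gonadal and between 0.72 and 1.16 in subcutaneous fat with 1 sample left out, where 3 against 4 cannot pass the exact test.

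The gonadal median of the 34 genes ran from -0.28 to 0.13 with 1 sample left out. It was 0.11 without the libraries highest in muscle markers by median level (LCN2 replicate 4 and GFP replicate 2). Without those highest in hepatocyte genes by median level (LCN2 replicates 1 and 2 and GFP replicate 1) it was 0.16. Without LCN2 replicate 3 and GFP replicate 4, an alternative chosen after seeing the data, it was -0.34 in gonadal and -0.23 in subcutaneous fat. That shift follows from the choice, which takes away the highest LCN2 and the lowest GFP sample of most of these genes. On recovered reads the gonadal median of the 34 genes was -0.094 with edgeR (21 lower) and -0.096 with DESeq2 (22 lower). The gonadal median of the shuttle genes turned sign there, to -0.067 with edgeR and -0.073 with DESeq2, against 0.085 with limma.

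Some differences turned sign, small and larger ones. In gonadal fat this gave Dld -0.062, Cs -0.0034, Dlst -0.033 and Slc25a10 -0.032 with DESeq2, and Dld -0.058, Dlst -0.031 and Slc25a10 -0.023 with edgeR. Centring on sample medians gave Ogdh 0.0040 in subcutaneous fat. Without the libraries highest in muscle markers the gonadal values were Mpc1 0.027, Dlat 0.11, Pdhx 0.012, Pdp2 0.072, Pdpr 0.039, Pcx 0.11, Idh3b 0.032, Fh1 0.12, Slc25a1 0.16 and Mdh1 0.044. Without those highest in hepatocyte genes they were Mpc1 0.21, Pdha1 0.0064, Pdhb 0.26, Dlat 0.25, Pdhx 0.15, Pdpr 0.0063, Pcx 0.12, Idh2 -0.063, Fh1 0.061, Slc25a1 0.52 and Mdh1 0.17. Without the libraries with lymph node transcripts the subcutaneous values were Pdk4 0.20, Cs 0.0056, Ogdh 0.032, Suclg1 0.054 and Got2 0.027. Without both LCN2 replicate 3 and GFP replicate 4 the gonadal values were Mpc2 -0.29, Dld -0.38, Cs -0.42, Idh3a -0.095, Idh3g -0.19, Ogdh -0.027, Dlst -0.26, Suclg1 -0.14, Sucla2 -0.13, Mdh2 -0.25, Slc25a10 -0.73 and Idh1 -0.012, and the subcutaneous values were Pdk3 -0.024, Pdk4 0.10, Pdpr -0.015 and Pck1 0.050. The cause of these turns was not tested.

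With 1 sample left out, 21 genes turned sign in gonadal fat, with these lowest and highest values: Mpc1 (-0.46 to 0.15), Mpc2 (-0.12 to 0.36), Dlat (-0.39 to 0.13), Dld (-0.28 to 0.16), Pdhx (-0.37 to 0.070), Pdp2 (-0.29 to 0.035), Pdpr (-0.27 to 0.11), Pcx (-0.59 to 0.096), Cs (-0.25 to 0.21), Idh3b (-0.35 to 0.0073), Idh3g (-0.11 to 0.21), Idh2 (-0.0072 to 0.22), Ogdh (-0.011 to 0.26), Dlst (-0.20 to 0.14), Suclg1 (-0.10 to 0.24), Sucla2 (-0.045 to 0.37), Fh1 (-0.29 to 0.10), Mdh2 (-0.16 to 0.22), Slc25a1 (-0.60 to 0.18), Slc25a10 (-0.38 to 0.73) and Mdh1 (-0.34 to 0.12). In subcutaneous fat 8 did: Pdk4 (-0.36 to 0.22), Pdpr (-0.012 to 0.049), Idh3a (-0.17 to 0.026), Ogdh (-0.058 to 0.051), Suclg1 (-0.15 to 0.038), Mdh2 (-0.15 to 0.0025), Slc25a10 (-0.39 to 0.13) and Mdh1 (-0.18 to 0.060). Ratios that turned sign were Pck1 over Pcx (-0.64 to 0.13) and Pcx over Pdha1 (-0.0072 to 0.22) in gonadal fat, and Suclg2 over Sucla2 (-0.11 to 0.085), Mdh1 over Mdh2 (-0.048 to 0.058), Pdk4 over Pdk2 (-0.017 to 0.58), Mpc1 over Mpc2 (-0.12 to 0.00074) and Pcx over Pdha1 (-0.11 to 0.025) in subcutaneous fat. Got1 over Got2 in gonadal fat stayed between 0.35 and 0.53. Subcutaneous depth is unknown. In gonadal fat the SE exceeded 0.2 on the log2 scale for most of the 34 genes, so differences of that size lay within 1 SE.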
